A study of Mus musculus with 12 samples.

Results

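The 6 genes described here make the surrogate light chain and carry out V(D)J recombination: Vpreb1, Vpreb3, Igll1, Rag1, Rag2 and Dntt. They were read from every probe set, a group of short array probes for 1 transcript, whose only gene symbol was one of these names. This gave 9 probe sets among the 34945 with 1 symbol, for 6 of 18193 genes: 1 each for Vpreb1, Vpreb3, Rag1 and Rag2, 2 for Igll1 and 3 for Dntt. Unfractionated bone marrow from the tibia and femur of 12 mice was measured, with 1 array per mouse and no pooling. The groups were 3 C57Bl/6 wild-type mice, 3 Fancc-/- mice without Fancc, 3 mice labelled Fancg-/-, without Fancg, and 3 double-knockout mice without either gene (Fancc-/-//Fancg-/-). Both proteins belong to the core complex of the Fanconi anemia pathway of DNA crosslink repair, and the design compares marrow expression after loss of 1 gene, the other or both. The sources used here do not give the strain of the knockout mice, the part of either gene that was deleted, or the age or sex of any mouse.

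In the marrow, B cells arise from lymphoid progenitors that assemble an immunoglobulin heavy chain gene by V(D)J recombination. Rag1 and Rag2 together form the recombinase that cuts the gene segments, and Dntt (terminal deoxynucleotidyl transferase) adds untemplated nucleotides at the joints. Vpreb1 and Igll1 (lambda5) proteins combine into the surrogate light chain, which pairs with a newly made heavy chain to form the pre-B-cell receptor. Vpreb3 is a related protein that binds heavy chains inside the cell. In marrow these genes mark pro-B and pre-B cells, and the recombinase and Dntt are also used by developing T cells in the thymus.

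The stretch before the transcription start of 4 of the genes that fell together below is shown, to set the shared and unshared letters beside the values. Each is the 250 bases before the start in the RefSeq table (GRCm38.p6), read 5′ to 3′ in the direction of the gene, with every match to a searched motif in capitals. The coordinates are chr16:16869256-16869505, minus strand, for Vpreb1, chr16:16863986-16864235, minus strand, for Igll1, chr10:75948050-75948299, plus strand, for Vpreb3 and chr2:101649533-101649782, minus strand, for Rag1.
Vpreb1: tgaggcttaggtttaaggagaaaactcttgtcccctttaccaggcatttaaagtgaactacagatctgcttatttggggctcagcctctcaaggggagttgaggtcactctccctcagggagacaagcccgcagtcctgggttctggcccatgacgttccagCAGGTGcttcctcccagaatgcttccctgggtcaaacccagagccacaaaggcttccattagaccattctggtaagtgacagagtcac
Igll1: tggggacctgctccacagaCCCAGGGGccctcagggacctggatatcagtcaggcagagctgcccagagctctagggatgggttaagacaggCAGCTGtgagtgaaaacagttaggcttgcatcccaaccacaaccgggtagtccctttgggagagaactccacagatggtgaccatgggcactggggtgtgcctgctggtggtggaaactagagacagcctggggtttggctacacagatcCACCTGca
Vpreb3: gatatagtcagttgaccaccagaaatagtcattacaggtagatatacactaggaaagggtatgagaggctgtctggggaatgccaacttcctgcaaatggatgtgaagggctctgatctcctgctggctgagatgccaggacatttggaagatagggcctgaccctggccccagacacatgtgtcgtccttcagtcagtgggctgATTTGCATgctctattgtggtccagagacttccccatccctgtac
Rag1: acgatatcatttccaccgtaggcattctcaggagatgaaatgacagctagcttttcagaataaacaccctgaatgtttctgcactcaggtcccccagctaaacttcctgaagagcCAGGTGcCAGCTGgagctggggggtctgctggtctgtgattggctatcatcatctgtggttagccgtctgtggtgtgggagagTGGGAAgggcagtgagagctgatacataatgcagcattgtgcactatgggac
Motifs were searched on both strands in all 6 genes' stretches and in 32851 stretches of the same length. The E-box CAGGTG was present in Vpreb1, Igll1 and Rag1, 3 of 6 genes, against 17.2% of all stretches. The E-box CAGCTG, which reads the same on both strands, was in Igll1 and Rag1, 2 of 6, against 13.0%. The Ebf-type core CCCNNGGG was in Igll1 alone, against 11.8% of all stretches, and the Ikaros-type core TGGGAA in Rag1 alone, against 21.6%. The octamer ATTTGCAT, an element of immunoglobulin promoters, was in Vpreb3 alone, 45 bases before the start at its first base, against 1.6% of all stretches. The forkhead core GTAAACA (3.17% of all stretches) and the TATA box TATAAA (12.4%) matched none of the 6, and Rag2 and Dntt had no match to any of the 7 motifs. No capitals overlapped between motifs. A match describes letters only and is no measured binding site. Vpreb1 and Igll1 are next to each other among the protein-coding genes of chromosome 16, as are Rag1 and Rag2 on chromosome 2, and Dntt lies beside Blnk on chromosome 19.

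The values are log2 signals, and array medians ran from 4.79 to 4.87. The neutrophil, erythroid and B-lineage markers of marrow were measured in every group, with the mean of 10 neutrophil genes between 13.22 and 13.50 on every array. Sex-linked transcripts differed between groups. Xist, the RNA of the inactive X chromosome, ran from 11.19 to 12.23 in wild type and Fancc-/- and from 5.99 to 7.39 in the double knockout. Y-linked Eif2s3y ran from 2.89 to 3.30 in wild type and Fancc-/- and from 8.81 to 9.35 in the double knockout, so sex and genotype cannot be told apart in the double-knockout comparison with wild type. Both transcripts were high on the arrays of Fancg-/- replicates 1 (Xist 11.31, Eif2s3y 7.64) and 3 (Xist 10.75, Eif2s3y 5.78), while replicate 2 had Xist at 7.34 and Eif2s3y at 9.09. Fancg itself read 6.55, 6.00 and 6.64 in the Fancg-/- replicates. It read 6.80 to 6.86 in wild type, 6.43 to 6.72 in Fancc-/- and 5.61 to 5.83 in the double knockout. Fancg-/- replicate 3 was labelled from 0.91 µg of RNA where the other arrays used 2 µg. Fancc read 5.96 to 6.17 in Fancc-/- and 5.90 to 6.18 in wild type, and whether these probes lie in the deleted stretch is not given in the sources used here. The Fancg signals of Fancg-/- replicates 1 and 3 were below the wild-type range and above replicate 2. They lay within the range of the Fancc-/- arrays, whose label names no loss of Fancg. Replicates 1 and 3 also carried marks of both sexes, although each sample is labelled as 1 Fancg-/- mouse. Whether these samples were mixed or mislabelled was not tested, and Fancg-/- below means the arrays so labelled. The Fancg-/- results of the 6 genes are given with and without these arrays.

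Large falls of the surrogate light chain genes, Rag1 and Dntt were measured in Fancc-/- marrow. In Fancc-/-, 5 of the 6 genes fell and 0 rose (limma, Benjamini-Hochberg adjusted p below 0.05 over 11908 genes), where 2.36% of all tested genes fell. In the double knockout the same 5 genes fell, Vpreb1, Vpreb3, Igll1, Rag1 and Dntt, where 3.01% of all tested genes fell. The log2 changes of the 6 genes had a median of -3.21 for Fancc-/- and -2.93 for the double knockout, against -0.01 over all tested genes in each. At an unadjusted p below 0.05 all 6 were lower in both, against 11.2% of all tested genes in Fancc-/- and 13.7% in the double knockout. In Fancg-/-, 0 of 6 passed and 5 had an unadjusted p below 0.05, with a median of -1.86 against 0.01 over all tested genes, where 0.042% of all tested genes fell and 3.65% were lower at an unadjusted p below 0.05. The 3 comparisons share the wild-type arrays. The marrow was unfractionated, so fewer cells of a type and less RNA per cell cannot be told apart. All 6 genes passed the filter on dim signals, but Rag1 was above the array median on 4 arrays only, those of wild type and Fancg-/- replicate 3, so a difference between its arrays was built into its passing. With no filter 5 of 6 fell in Fancc-/- and 5 in the double knockout.

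**Figure D1:**
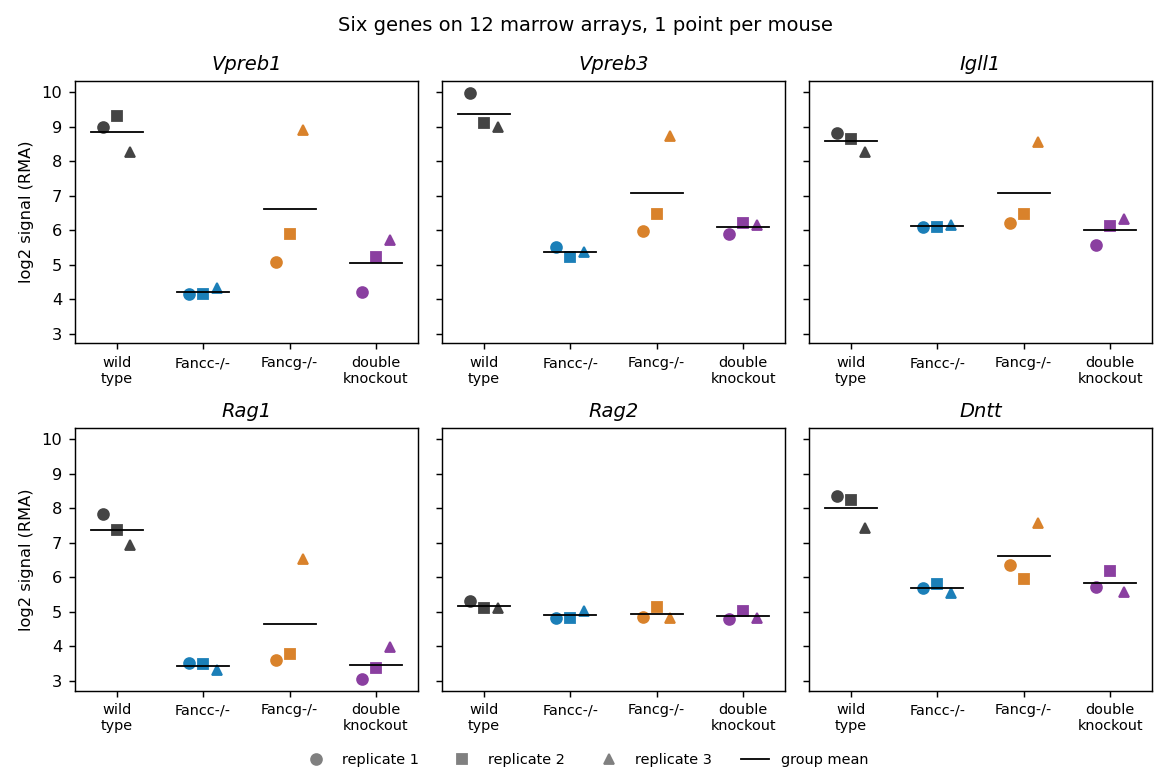
Log2 RMA signal (y axis) of the 6 genes in the 4 groups (x axis), with 1 point per mouse, the symbol giving the replicate and the bar the group mean (n = 3). All Fancc-/- and double-knockout points of Vpreb1, Vpreb3, Igll1, Rag1 and Dntt lie below the wild-type points. For these genes Fancg-/- replicate 3 lies near or within wild type while replicates 1 and 2 are low. For Rag2 Fancg-/- replicate 2 lies within wild type and replicates 1 and 3 below it.

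Vpreb1, the variable-like part of the surrogate light chain, read 8.99, 9.30 and 8.27 in the wild-type mice. The Fancc-/- arrays read 4.16, 4.16 and 4.31, and the double-knockout arrays 4.20, 5.21 and 5.70. The Fancg-/- mice read 5.07, 5.88 and 8.92. The Fancc-/- and double-knockout arrays were all below wild type without overlap, and Fancg-/- replicate 3 lay inside the wild-type range. On the Fancc-/- arrays Vpreb1 ranked between percentiles 35.8 and 38.9 of all probe sets, among the dim ones, against 85.8 to 92.2 in wild type. The log2 change was -4.64 ± 0.75 (SE) in Fancc-/- (limma adjusted p = 0.00648, lower in 3 of 3 mice). It was -3.82 ± 0.75 in the double knockout (limma adjusted p = 0.0207) and -2.23 ± 0.75 in Fancg-/- (adjusted p = 0.493). The Fancc-/- arrays were all below the array median for Vpreb1, so that change too is a lower bound in size.

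Igll1, the constant-like partner of Vpreb1, read 8.82, 8.64 and 8.27 in wild type on its brighter probe set. The Fancc-/- arrays read 6.08, 6.10 and 6.14, and the double-knockout arrays 5.57, 6.12 and 6.31. Its Fancg-/- values were 6.22, 6.48 and 8.55. Fancg-/- replicate 3 was again inside the wild-type range, all Fancc-/- and double-knockout arrays were below it, and the Fancc-/- mice had an SD of 0.03 (n = 3). The change was -2.47 ± 0.47 in Fancc-/- (limma adjusted p = 0.0123), -2.58 ± 0.47 in the double knockout (adjusted p = 0.0174) and -1.49 ± 0.47 in Fancg-/- (adjusted p = 0.399). This probe set, like the one that stands for Dntt, has the suffix _x_at, which marks probes that can also match other transcripts. The other Igll1 probe set was below the median on all 12 arrays, between 4.08 and 4.51, with differences from wild type of 0.06 for Fancc-/- and 0.23 for the double knockout. The fall of Igll1 therefore rests on 1 probe set, and the mean of both gave -1.21 ± 0.27 in Fancc-/- (adjusted p = 0.0287) and -1.18 ± 0.27 in the double knockout (adjusted p = 0.0343).

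Vpreb3 read 9.98, 9.11 and 9.00 in wild type. The Fancc-/- arrays read 5.52, 5.23 and 5.36, and the double-knockout arrays 5.89, 6.22 and 6.16. The Fancg-/- values were 5.99, 6.48 and 8.74. All 9 knockout arrays were below the lowest wild-type array, Fancg-/- replicate 3 by the smallest step. The change was -3.99 ± 0.54 in Fancc-/-, or 15.9-fold lower (limma adjusted p = 0.00234), and -3.27 ± 0.54 in the double knockout (adjusted p = 0.0138). The Fancg-/- difference was -2.29 ± 0.54 (limma adjusted p = 0.203).

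Rag1, the cutting subunit of the recombinase, read 7.84, 7.37 and 6.94 in wild type. The Fancc-/- arrays read 3.52, 3.47 and 3.32, and the double-knockout arrays 3.06, 3.36 and 3.97. The 3 Fancg-/- arrays read 3.60, 3.77 and 6.53. All 9 knockout arrays were again below every wild-type array, and 8 of them lay between percentiles 5.6 and 31.5 of all probe sets, where signals are dim. The change was -3.94 ± 0.60 in Fancc-/- (limma adjusted p = 0.00441) and -3.92 ± 0.60 in the double knockout (adjusted p = 0.0111). The Fancg-/- difference was -2.75 ± 0.60 (limma adjusted p = 0.182). With the knockout signals at the bottom of the array range and no detection call, these differences can be read only as lower bounds of the size of the fall.

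Rag2, the partner subunit of Rag1, was dim on its 1 probe set and had the narrowest range. It read 5.31, 5.12 and 5.11 in wild type and 4.83, 4.83 and 5.03 in Fancc-/-. It read 4.85, 5.14 and 4.81 in Fancg-/- and 4.80, 5.01 and 4.82 in the double knockout. The wild-type arrays lay between percentiles 54.0 and 57.2 of all probe sets and the knockout arrays between 49.4 and 54.3. The Fancc-/- and double-knockout arrays were below wild type without overlap. The values were -0.28 ± 0.12 in Fancc-/- (limma adjusted p = 0.203), -0.31 ± 0.12 in the double knockout (adjusted p = 0.134) and -0.25 ± 0.12 in Fancg-/- (adjusted p = 0.712), none past the threshold. The 95% interval of the Fancc-/- difference was -0.54 to -0.03, and that of Rag1 was -5.24 to -2.63. The wild-type Rag2 signals lay close to the array medians, so a larger fall of Rag2 could be hidden on this probe set. Whether it was hidden was not tested.

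Dntt was read on 3 probe sets, of which the one with the highest mean stood for the gene. On it Dntt read 8.36, 8.25 and 7.43 in wild type and 5.70, 5.80 and 5.54 in Fancc-/-. It read 6.35, 5.96 and 7.56 in Fancg-/- and 5.71, 6.18 and 5.57 in the double knockout. Fancg-/- replicate 3 was above wild-type replicate 3, and all Fancc-/- and double-knockout arrays were below wild type. The change was -2.33 ± 0.36 in Fancc-/- (5.04-fold lower, limma adjusted p = 0.0049), -2.19 ± 0.36 in the double knockout (adjusted p = 0.0138) and -1.39 ± 0.36 in Fancg-/- (adjusted p = 0.279). A second probe set read 7.74 to 8.37 in wild type, 4.77 to 5.40 in Fancc-/- and 5.75 to 6.00 in the double knockout. In a fit over all probe sets it changed by -2.95 ± 0.33 (limma adjusted p = 0.0014) in Fancc-/- and -2.29 ± 0.33 (adjusted p = 0.0119) in the double knockout. The remaining Dntt probe set was below the median on all 12 arrays, at 4.20 to 4.74 in wild type, 3.63 to 4.04 in Fancc-/- and 3.76 to 3.84 in the double knockout. All 3 probe sets thus put every Fancc-/- and double-knockout array below every wild-type array.

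**Figure D2:**
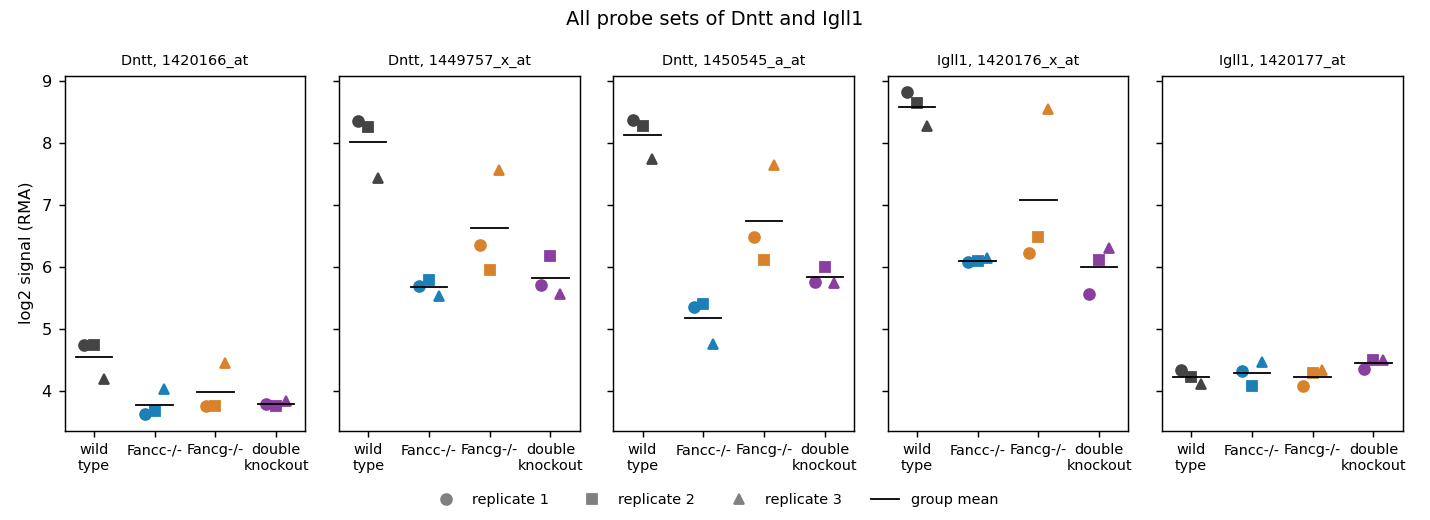
Log2 RMA signal (y axis) on the 3 probe sets of Dntt and the 2 of Igll1 in the 4 groups (x axis), 1 point per mouse, with the bar at the group mean (n = 3). The Dntt probe sets give the same order of groups at different signal levels, while Igll1 separates the groups on its _x_at probe set only and stays between 4.08 and 4.51 on the other.

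Every Fancc-/- array was below every wild-type array for 6 of 6 genes, a state found in 13.1% of all tested genes. The same held for 6 of 6 genes in the double knockout, against 16.9% of all tested genes. In Fancg-/- it held for Vpreb3 and Rag1, 2 of 6 genes, against 8.61%. In Fancc-/- leaving out 1 array kept between 4 and 5 calls. Igll1 was lost without wild-type replicate 2 (limma adjusted p = 0.0574), where 81 of 11908 genes fell, against 281 with all arrays. The double-knockout calls were less stable. Of the 5 calls, 3 were left without wild-type replicate 1, 0 without wild-type replicate 2, 3 without wild-type replicate 3, 2 without double-knockout replicate 2 and 1 without double-knockout replicate 3. Over all 11908 genes, 359 fell with all arrays, and 62, 5, 41, 24 and 7 in these fits, in the same order. Those counts over all genes also belong beside the list counts of the same fits below. The log2 changes stayed between -4.15 and -3.40 for Vpreb1 and between -4.17 and -3.69 for Rag1 when 1 array was left out. With Xist as a covariate 0 of the 5 calls were left in the double knockout, where 0 of 11908 genes were called in either direction. Xist almost follows the double-knockout group, so this fit cannot separate sex from genotype there. The changes were -3.63 ± 1.67 for Vpreb1 and -3.31 ± 1.31 for Rag1. In Fancc-/- 5 calls were left, where 187 of 11908 genes fell.

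**Figure D3:**
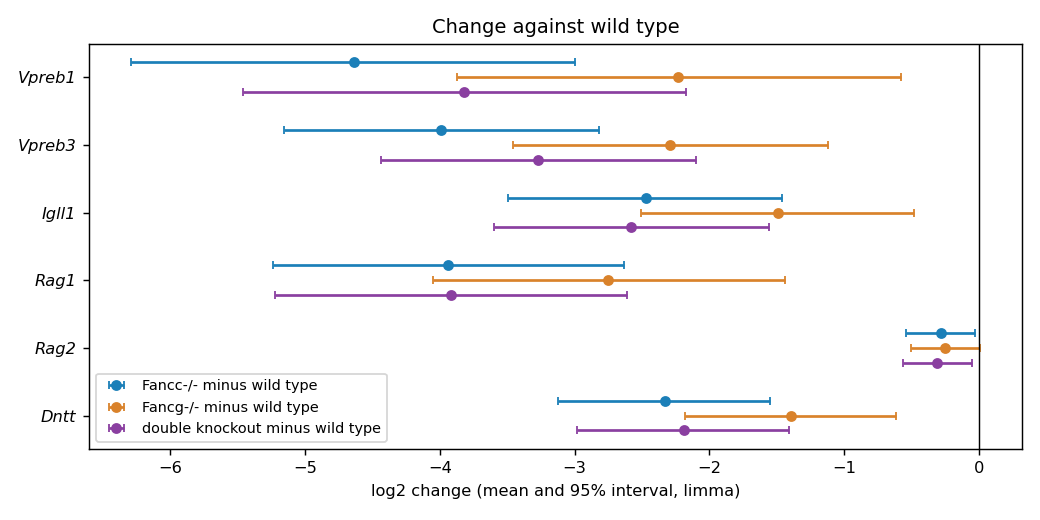
Log2 change against wild type (x axis) of each gene (y axis) in Fancc-/-, Fancg-/- and the double knockout, as the fitted mean with its 95% interval (limma, n = 3 per group). Rag2 stays between -0.56 and 0.01, and the Fancg-/- points of Vpreb1, Vpreb3, Igll1, Rag1 and Dntt are nearer to 0 than both other comparisons.

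The Fancg-/- result turned on replicate 3. Without it, 5 of 6 genes fell in Fancg-/-, where 0.235% of all tested genes fell: Vpreb1 (-3.37 ± 0.41, limma adjusted p = 0.00836), Vpreb3 (-3.13 ± 0.27, adjusted p = 0.000807), Igll1 (-2.23 ± 0.22, adjusted p = 0.00253), Rag1 (-3.70 ± 0.27, adjusted p = 0.000243) and Dntt (-1.86 ± 0.27, adjusted p = 0.0216). Without replicate 1 or replicate 2 instead, 0 passed. With replicate 2 as the only Fancg-/- array, Vpreb1 changed by -2.97, Vpreb3 by -2.88 and Igll1 by -2.1. Rag1 changed by -3.61, Rag2 by -0.04 and Dntt by -2.06 in this fit. The mean of the 6 genes per array was 5.35, 5.62 and 7.52 in the Fancg-/- replicates, against 7.50 to 8.22 in wild type, 4.93 to 4.97 in Fancc-/- and 4.87 to 5.42 in the double knockout. Replicate 3 was the array with the lower RNA input, whose part in its values was not tested. Both sex marks were also present in replicate 1, where the mean of the 6 genes was low. Their levels differed, with Eif2s3y at 7.64 in replicate 1 and 5.78 in replicate 3. A link between these marks and the 6 genes was not tested.

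The knockout groups were then compared with each other. Sex marks differed between these groups, as given above. Sex and genotype cannot be told apart between the double knockout and Fancc-/-, and sex can also enter the other comparisons and the interaction. Between the double knockout and Fancc-/-, 0 of 6 genes passed by limma and 0 had an unadjusted p below 0.05, where 0% of all tested genes were called lower and 19.7% had such a p in either direction. The 95% intervals of the difference were -0.82 to 2.47 for Vpreb1, -0.45 to 1.89 for Vpreb3, -1.12 to 0.91 for Igll1, -1.28 to 1.33 for Rag1, -0.28 to 0.23 for Rag2 and -0.64 to 0.93 for Dntt. Between the double knockout and Fancg-/-, 0 of 6 passed and 2 had an unadjusted p below 0.05, Igll1 at -1.09 ± 0.47 and Dntt at -0.80 ± 0.36, where 0% of all tested genes were called lower and 7.75% were lower at such a p. Between Fancg-/- and Fancc-/-, 0 of 6 passed and 3 had an unadjusted p below 0.05, with Vpreb1 2.41 ± 0.75 higher in Fancg-/-, Vpreb3 1.70 ± 0.54 and Dntt 0.94 ± 0.36. Of all tested genes 0.0252% were called higher, 0.084% were called lower and 5.13% were higher at such a p. For the interaction, the change in the double knockout was set against the 2 single-knockout changes added together. For genes that fell, a value above 0 means a smaller fall in the double knockout than that total. The interaction was above 0 for all 6 genes, with 0 past the threshold and 4 at an unadjusted p below 0.05. Of all tested genes 0.0084% were called above 0, 0% were called lower and 7.45% were above 0 at such a p. It was 3.01 ± 0.76 for Vpreb3 (limma adjusted p = 0.128) and 2.77 ± 0.85 for Rag1 (adjusted p = 0.185). Without Fancg-/- replicate 3, where 0.176% of all tested genes were called above 0, 4 of 6 passed: Vpreb1 (4.20 ± 0.55, adjusted p = 0.0186), Vpreb3 (3.85 ± 0.36, adjusted p = 0.00437), Igll1 (2.12 ± 0.30, adjusted p = 0.0221) and Rag1 (3.72 ± 0.36, adjusted p = 0.00437). For Vpreb1 and Rag1 the 2 single-knockout changes added together would reach below 2.43, the lowest signal on any array, in either fit. For Vpreb3 they would do so in the fit without Fancg-/- replicate 3. For Igll1 they would reach below 5.57, the lowest reading of its probe set, in either fit. An interaction above 0 was thus built into the signal range where the total fell below 2.43. For Igll1 the range of its probe set may do the same, and nothing is drawn from the interaction of any of the 6 genes.

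Among themselves, Vpreb1, Vpreb3, Igll1, Rag1 and Dntt went up and down together over the 12 arrays, with Pearson r between 0.946 and 0.989 over their 10 pairs. These arrays fall into high and low sets, so the values describe that split. After each group's mean was taken out, r was 0.765 to 0.985, and 0.387 to 0.934 over the 9 arrays without the Fancg-/- group, whose replicate 3 sets it apart. Rag2 had r between 0.559 and 0.625 with the others, and between -0.275 and -0.093 after the group means were taken out. The points share arrays and normalization, and no p is given.

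The genes whose pattern was most like the mean profile of the 6 were named by Pearson r over the 12 arrays. They were Akap12, a scaffold protein of kinase signalling (r = 0.986), Niban3 (0.980), Rhoh, a GTPase of blood cells (0.969), Fcrla, an Fc receptor-like protein of B cells (0.950), the ceramide kinase Cerk (0.949), Cd79b, a signalling chain of the B-cell receptor and pre-B-cell receptor (0.947), Ly6d, a surface marker of lymphoid progenitors committed to the B lineage (0.947), and Blnk, the adaptor below the pre-B-cell receptor (0.941). Akap12 had means of 7.24 in wild type, 4.11 in Fancc-/-, 4.40 in the double knockout and 5.38 in Fancg-/-, and read 4.56, 5.01 and 6.56 in the Fancg-/- replicates. Niban3 had means of 8.58, 4.92, 5.27 and 6.20 in the same order, and read 5.42, 5.70 and 7.50. For Vpreb1 alone, Fcer2a, the low-affinity IgE receptor of mature B cells, came next after Akap12 and Niban3 (r = 0.938). Rag2 had other neighbours, Slc30a4 (0.878), Cuedc1 (0.813) and Tmem106b (0.811), at lower r. Akap12 was among the 3 nearest genes of Vpreb1, Vpreb3, Igll1, Rag1 and Dntt.

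**Figure D4:**
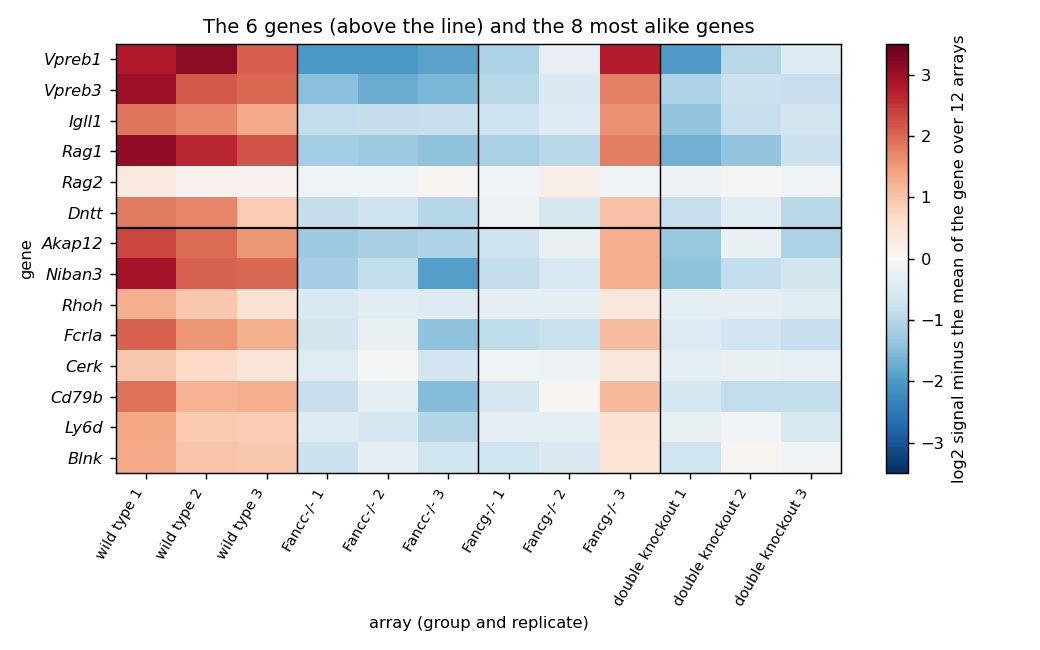
Log2 signal minus the mean of the gene over the 12 arrays (colour) for the 6 genes, above the line, and the 8 genes most like their mean profile, below it, on each array (columns, ordered by group and replicate). The wild-type columns are above 0 for all 14 genes and Fancg-/- replicate 3 for all but Rag2, and most cells of the other columns are below 0.

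For the rest of the recombination pathway no change passed the test. Of 14 listed end-joining genes and cofactors, 11 were tested, and 0 passed in Fancc-/-, Fancg-/- or the double knockout by limma. In Fancc-/- 4 and in the double knockout 2 had an unadjusted p below 0.05, all lower, and 0 did so in Fancg-/-, against the shares of all tested genes above (11.2%, 13.7% and 3.65%). With array weights 3 of 11 fell in the double knockout, where 15.7% of all tested genes fell, and 2 of 11 without double-knockout replicate 1, where 8.94% did. The median change was -0.35 in Fancc-/-, -0.17 in the double knockout and -0.06 in Fancg-/-. Polm, a polymerase of end joining related to Dntt, had -0.63 ± 0.22 in Fancc-/- (limma adjusted p = 0.146) and -0.63 ± 0.22 in the double knockout (adjusted p = 0.114). Xrcc6, the Ku70 subunit, had -0.59 ± 0.23 in Fancc-/- (adjusted p = 0.193) and -0.48 ± 0.23 in the double knockout (adjusted p = 0.243). Atm, the kinase that responds to DNA breaks, had -0.49 ± 0.34 in Fancc-/- (adjusted p = 0.453) and -0.82 ± 0.34 in the double knockout (adjusted p = 0.165). Lig4, the ligase of this pathway, was too dim to be tested, at means of 4.62 in wild type, 3.79 in Fancc-/-, 3.71 in the double knockout and 3.93 in Fancg-/-, and was picked out after its values were seen.

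Of 14 listed genes of pre-B-cell receptor signalling 11 were tested, and 6 fell and 1 rose in Fancc-/-, 0 passed in Fancg-/- (5 at an unadjusted p below 0.05) and 6 fell in the double knockout. Cd79a, which signals with Cd79b in the receptor, changed by -2.52 ± 0.28 in Fancc-/- (limma adjusted p = 0.0012) and -1.94 ± 0.28 in the double knockout (adjusted p = 0.0105). Cd79b changed by -2.35 ± 0.39 in Fancc-/- (adjusted p = 0.00707) and -2.26 ± 0.39 in the double knockout (adjusted p = 0.0162). Blk, a kinase at the receptor, and Blnk changed by -1.92 ± 0.33 and -1.67 ± 0.29 in Fancc-/- (adjusted p = 0.00817 for each). The riser was Ighm, the heavy chain that pairs with the surrogate light chain, at 0.51 ± 0.10 in Fancc-/- (adjusted p = 0.0137), chosen after its values were seen, and 0 rose with the mean of all probe sets of a gene. The median change was -0.78 in Fancc-/- and -0.68 in the double knockout. In Fancg-/- 2 fell without replicate 3, where 0.235% of all tested genes fell, and 5 with array weights, where 1.37% did. Among double-knockout fits the count was 1 without wild-type replicate 1, 1 without wild-type replicate 2, 2 without wild-type replicate 3, 1 without double-knockout replicate 2 and 0 without double-knockout replicate 3.

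Of 17 transcription factors listed as regulators of these genes, 16 were tested, and 7 fell and 0 rose in Fancc-/-, 0 passed in Fancg-/- (10 at an unadjusted p below 0.05) and 7 fell in the double knockout. Ebf1, which specifies the B lineage, changed by -3.18 ± 0.40 in Fancc-/- (limma adjusted p = 0.00213) and -2.39 ± 0.40 in the double knockout (adjusted p = 0.015). It was above the array median on 5 arrays only, those of wild type among them, so a difference was partly built into its passing the filter. Its Fancc-/- mean was dim, at 4.23, so that change is a lower bound in size. Bach2, a repressor active in B-lineage cells, changed by -3.29 ± 0.43 (adjusted p = 0.00213) and -2.91 ± 0.43 (adjusted p = 0.0107). Sox4, needed for pro-B cells, changed by -2.46 ± 0.37 (adjusted p = 0.00389) and -1.97 ± 0.37 (adjusted p = 0.0179). Pax5 was dim, with means of 4.96 in wild type and 4.79 in Fancc-/-, and Tcf3, which encodes the E-box factor of early B cells, had -0.30 in Fancc-/- (adjusted p = 0.26), both picked out after their values were seen. In Fancg-/- 3 fell without replicate 3, where 0.235% of all tested genes fell, and 7 with array weights, where 1.37% did. The count for the double knockout was 4 without wild-type replicate 1, 0 without wild-type replicate 2, 3 without wild-type replicate 3, 2 without double-knockout replicate 2 and 0 without double-knockout replicate 3.

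Other marrow cell types were set beside the 6 genes. Mature B-cell markers fell with them, 9 of 9 tested in Fancc-/- with a median of -1.68 and 6 of 9 in the double knockout with a median of -1.26, and 0 in Fancg-/- (7 at an unadjusted p below 0.05). The double-knockout count was 2, 0 and 0 without wild-type replicate 1, 2 or 3, and 1 and 0 without double-knockout replicate 2 or 3, and the Fancc-/- count was 5 without wild-type replicate 2 and 2 with no moderation of variances. In Fancg-/- 6 of 9 fell with array weights, where 1.37% of all tested genes fell, and 0 without replicate 3. Without Fancg-/- replicate 3, 1 early lymphoid gene fell in Fancg-/-, and 0 end-joining, 0 T-cell and 0 erythroid genes passed. With Xist as a covariate, and with no moderation, 0 mature B-cell, 0 pre-B-cell receptor and 0 regulator genes passed in the double knockout. Of all 11908 genes 0 passed there with Xist, and 14 fell and 25 rose with no moderation. The mean of these markers per array was 8.14 to 8.30 for wild type, 6.20 to 6.87 for Fancc-/-, 6.50 to 7.16 for the double knockout and 6.93 to 7.67 in Fancg-/-. Of 9 early lymphoid progenitor genes, 2 fell in Fancc-/- and 1 in the double knockout, with a mean per array of 8.56 to 8.80 for wild type, 7.72 to 8.10 for Fancc-/-, 8.16 to 8.35 for the double knockout and 8.06 to 8.25 in Fancg-/-. Of 9 T-cell markers, 0 passed in any of the 3 comparisons. With array weights 2 of 9 were lower in the double knockout, where 15.7% of all tested genes fell. The unadjusted p was below 0.05 for 3 of these 9 T-cell markers in Fancc-/-, 2 of them lower and Cd8a higher (0.41 ± 0.14). It was so for 1 in the double knockout, lower, and 0 in Fancg-/-. Their mean ran from 6.67 to 6.80 for wild type, 5.98 to 6.75 for Fancc-/-, 6.32 to 6.71 for the double knockout and 6.69 to 6.89 in Fancg-/-, and Ptcra, the pre-T-cell receptor chain of thymocytes, was too dim to be tested, between group means of 4.27 and 4.54. Of 7 erythroid markers, 6 rose in Fancc-/- and 2 in the double knockout, with a mean per array of 10.13 to 10.53 for wild type, 11.32 to 11.73 for Fancc-/-, 10.63 to 11.35 for the double knockout and 10.92 to 10.98 in Fancg-/-, and the part of this rise in the values of the 6 genes was not tested. The erythroid count was 3 in Fancc-/- with no moderation, and 0 in the double knockout without wild-type replicate 2 or 3 or double-knockout replicate 2 or 3. Of 10 neutrophil markers, 0 passed in Fancc-/- and Fancg-/- and 2 fell in the double knockout, Mpo at -0.31 and Elane at -0.33, both enzymes of primary granules and picked out after their values were seen, with 0 left without any 1 of the wild-type arrays. Setting each array to the mean of the neutrophil genes, an alternative added after the data were seen that moved the median of all genes by 0.12 in Fancc-/- and 0.13 in the double knockout, left 5 of 6 genes called in each.

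**Figure D5:**
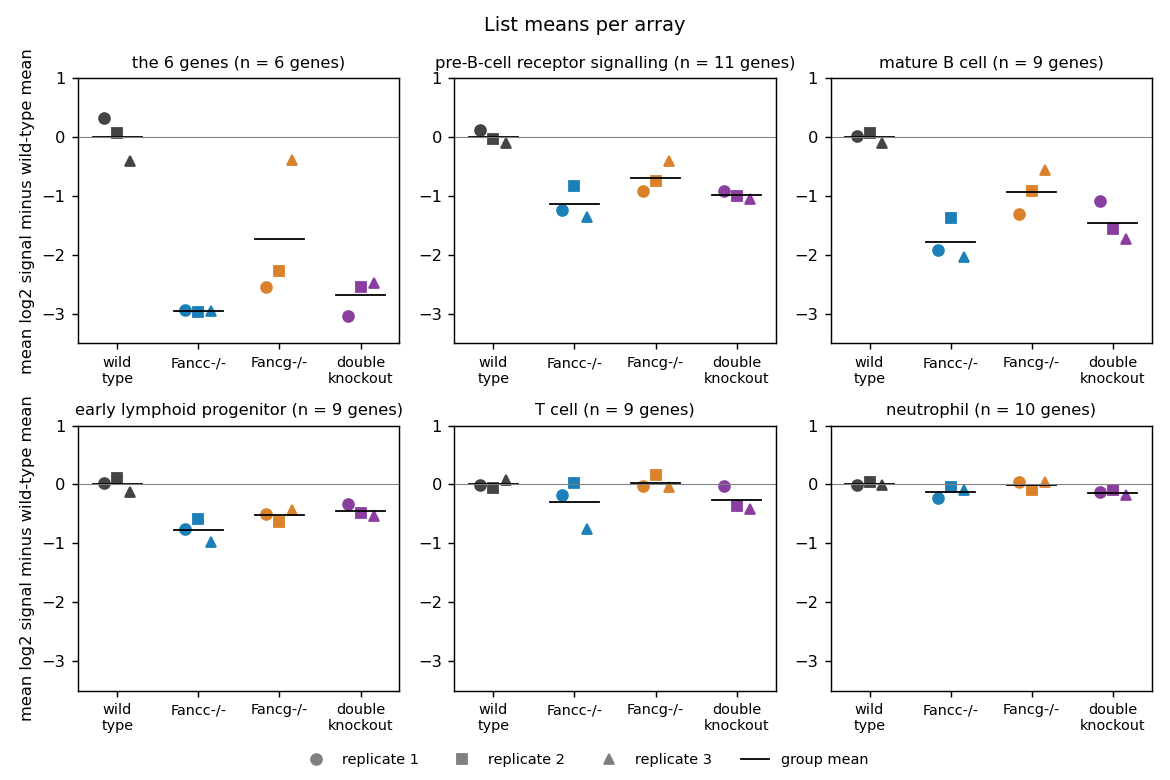
Mean log2 signal of each gene list per array minus the wild-type mean (y axis) in the 4 groups (x axis), 1 point per mouse and the bar at the group mean (n = 3). The 6 genes have the deepest shift in Fancc-/- and the double knockout, and in Fancg-/- replicate 3 their mean lies at the lower edge of the wild-type range while the means of the mature B-cell, pre-B-cell receptor and early lymphoid lists lie below it.

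In Fancg-/- replicate 3 the 6 genes were split. Vpreb1 at 8.92, Igll1 at 8.55 and Dntt at 7.56 lay within the wild-type range, while Vpreb3 at 8.74, Rag1 at 6.53 and Rag2 at 4.81 lay below it. The mean of the 6 was 7.52, at the lower edge of the wild-type range of 7.50 to 8.22. Of the mature B-cell markers 7 of 9 were below the wild-type range and 2 within it, with a mean of 7.67 against 8.14 to 8.30. Of the pre-B-cell receptor genes 9 of 11 were below it and 2 within it, with a mean of 9.47 against 9.78 to 9.99. Of the regulators 13 of 16 were below it, 2 within it and 1 above it, with a mean of 8.42 against 8.82 to 9.06. These are the values of 1 array, and no difference between the lists was tested.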

How the data were processed

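The authors deposited 1 table of log2 signals per probe set for the 12 arrays. Per the submitters' processing notes it was made with RMA, which adjusts background, normalizes quantiles and summarizes probes, and with Partek, with no version named. Per the labels, oligo-dT priming preceded amplification to biotin-labelled cRNA. The number of arrays, 3 per group, limits the precision, and an exact permutation test of 3 mice against 3 could not go below p = 0.1.

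Of 45101 probe sets, 64 array controls, 932 with several symbols and 9160 with none were not used. The 9 probe sets of the 6 genes matched the RefSeq gene table (GRCm38.p6) by gene ID. For each gene the brightest probe set by mean was used, and tested if it was above the array median on at least 3 arrays, which left 11908 of 18193 genes. limma 3.58.1 in R 4.3.3 was fitted to all 12 arrays with 4 group means, moderated variances and a variance trend (8 residual degrees of freedom). Tests were 2-sided, adjusted by Benjamini-Hochberg over all tested genes, and called below 0.05. The fit was tested on simulated data. Fold changes are differences of log2 group means, given with the standard error (SE).

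The members and lists were chosen with earlier results of these data known. Named genes are the 6 genes, the 8 most like their mean profile and the 3 most like each gene over the 12 arrays, and up to 3 of smallest p from each pathway list (end joining, pre-B-cell receptor signalling, regulators), besides the sex-linked genes, Fancc and Fancg. The lists of plasma cell, plasmacytoid dendritic cell and stroma markers are given in the closing section. Alternatives covered the filter, the probe set of a gene, the scaling, the variance model, array weights, the samples fitted, the replicate number and Xist as covariates, and leaving out each array.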

Additional observations from a re-analysis of the deposited data

How the results depend on the processing

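In Fancc-/- against wild type 5 of 6 genes were called, and the count was 3 to 5 over 15 alternatives and 4 to 5 when 1 array was left out. In the double knockout against wild type the 5 calls became 0 to 5 when 1 array was left out. They became 0 with no moderation of variances, where 14 of 11908 genes fell. With Xist as a covariate they became 0, where 0 of 11908 genes were called. Only probe sets without the suffixes _s_at, _x_at or _a_at gave 3 calls in Fancc-/- and 3 in the double knockout, because Igll1 and Dntt were then too dim to be tested. In Fancg-/- against wild type the 0 calls became 5 with array weights, where 1.37% of all tested genes fell. They became 0 to 5 when 1 array was left out, with 5 without replicate 3, where 0.235% of all tested genes fell. With replicate 2 as the only array of its group, only the sizes of the changes are given, above. The interaction had 0 calls, and 0 to 4 when 1 array was left out. With array weights it had 3, where 4.63% of all tested genes were called above 0 and 4.06% below. The double knockout against Fancc-/- or Fancg-/-, and Fancg-/- against Fancc-/-, had 0 calls among the 6 genes in every alternative run, 0 to 0 when 1 array was left out. No called gene changed direction in any alternative. Above the percentile 75, Rag1 and Rag2 were not tested and 4 of 4 fell in Fancc-/- and in the double knockout. A fit of only the groups compared could not be made for the interaction. Over all 11908 genes, 540 were called in Fancc-/- against wild type (247 to 755 over the other settings, 175 to 713 with 1 array left out), 629 in the double knockout (0 to 3382, and 16 to 1853) and 6 in Fancg-/- (0 to 277, and 0 to 31). In Fancc-/- the split of 281 lower and 259 higher genes became 252 and 366 after a further quantile normalization and 170 and 430 with arrays set to the neutrophil genes, which also turned 359 lower and 270 higher into 195 and 702 in the double knockout. The causes of the other changes were not tested.

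Same-numbered mice of different groups were not shown to be paired: their deviations from group means correlated between -0.37 and 0.20 over 18 pairs, and 3 of 12 arrays were closest to an array of their own number. With the replicate block 5 genes were called in Fancc-/-, 5 in the double knockout and 0 in Fancg-/-, as without it. Signals near the bottom of the array range, as for Rag1 and Vpreb1 in the knockouts, have no count or detection call behind them here.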

Other observations

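A further probe set was shared by Vpreb1 and Vpreb2, a near copy of Vpreb1, and so belongs to neither alone. It read 7.01, 7.13 and 6.52 in wild type, 5.02, 5.05 and 5.42 in Fancc-/-, 4.99, 5.15 and 5.49 in the double knockout and 5.25, 5.39 and 6.76 in Fancg-/-. The differences from wild type were -1.72 in Fancc-/-, -1.68 in the double knockout and -1.09 in Fancg-/-, in the order seen for Vpreb1. Fancg-/- replicate 3 again lay within the wild-type range.

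Markers of other marrow cells were read as well. Of 6 plasmacytoid dendritic cell genes, 1 fell in Fancc-/- and 0 in the double knockout (3 and 1 with the mean of all probe sets of a gene). Their mean per array was 7.89 to 8.11 in the wild-type mice, with 6.02 to 7.32 in Fancc-/-, 7.31 to 7.96 in the double knockout and 6.96 to 7.44 in Fancg-/-. Of 6 plasma cell genes 0 passed in any comparison with wild type, with a mean of 8.16 to 8.50 in wild type and 7.65 to 8.63 in Fancc-/-. Of 5 stroma genes 0 passed, with a mean of 5.17 to 6.50 in wild type and 6.35 to 8.10 in Fancg-/-. These values were not weighed as causes of the changes in the 6 genes.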
